A study of Mus musculus with 6 samples.

Results

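Nr3c1, the glucocorticoid receptor, and 8 genes grouped with it as its transcriptional targets were followed in CD8+ T cells isolated from mouse liver. The 9 genes were chosen by name: Nr3c1, Fkbp5, Tsc22d3, Txnip, Ddit4, Pik3ip1, Sgk1, Klf9 and Zbtb16. They are 9 of 54532 genes in the deposited count table, all 9 were found, and all 9 were among the 14054 genes that passed the filter on low counts. The set holds no adrenergic receptor, so adrenergic receptors were described from a list of their own. RNA was measured in bulk in 3 libraries labelled CUMS and 3 labelled control, in a study of chronic stress and liver CD8+ T cells. The control libraries carry the genotype tag "Wild type" and the others carry the tag "CUMS", and no source used here gives strain, age, sex, the stress schedule or how the cells were purified. Whether replicates came from separate animals is not labelled, so p-values measure the spread between these libraries only, which may be technical.

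Glucocorticoids are the steroid hormones that the adrenal gland releases under stress. They enter the cell and bind the receptor encoded by Nr3c1, which waits in the cytoplasm in a complex with the chaperone HSP90 and its cochaperones and then moves to the nucleus, where it binds DNA and switches genes on or off. In T cells these hormones restrain activation and cytokine production and can induce death, and stress also reaches T cells through adrenaline and noradrenaline, which act on adrenergic receptors and raise cyclic AMP.

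The receptor recognises a palindrome of half-sites set apart by a spacer, the glucocorticoid response element. RefSeq promoter windows on GRCm38.p6, each from 250 bases before to 50 bases after an annotated start, were matched by symbol for 7 of the 9 genes, 14 windows in all. Nr3c1 and Zbtb16 had none. The windows were searched on both strands for the full palindrome, AGAACA and TGTTCT with any 3 bases between them, for a looser form that the full palindrome contains, GNACA and TGTNC with the same spacer, for the forkhead motif GTAAACA that FOXO factors bind, and for the cyclic AMP response element TGACGTCA. The full palindrome occurred in 3 of all 32851 windows (0.00913%), and 1 of these belonged to Sgk1. The loose element occurred in 0.475% of all windows, among them 1 of Sgk1 and the window of Txnip. The forkhead motif occurred in 3.65% of all windows, among them those of Txnip and Klf9. The cyclic AMP element occurred in 1.79% of all windows and in none of these 14. A match describes the letters only, and a window without one says nothing about binding elsewhere.

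The 250 bases before the start are shown for the genes with a match, on the plus strand and with the matches in capitals. None of these bases lies in an exon of its gene in the GENCODE M21 annotation of the same build. The Sgk1 window (chr10:21993640-21993889) lies within the deposited gene, before an internal start, and holds the full palindrome, beginning 189 bases before that start. The Txnip window (chr3:96557707-96557956) holds the loose element 172 bases and the forkhead motif 121 bases before the start. The Klf9 window (chr19:23140976-23141225) holds the forkhead motif 100 bases before the start.
Sgk1: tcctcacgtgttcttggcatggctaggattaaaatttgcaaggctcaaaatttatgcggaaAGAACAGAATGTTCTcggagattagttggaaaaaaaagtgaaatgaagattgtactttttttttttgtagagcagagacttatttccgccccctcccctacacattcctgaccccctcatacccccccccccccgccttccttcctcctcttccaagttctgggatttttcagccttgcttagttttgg
Txnip: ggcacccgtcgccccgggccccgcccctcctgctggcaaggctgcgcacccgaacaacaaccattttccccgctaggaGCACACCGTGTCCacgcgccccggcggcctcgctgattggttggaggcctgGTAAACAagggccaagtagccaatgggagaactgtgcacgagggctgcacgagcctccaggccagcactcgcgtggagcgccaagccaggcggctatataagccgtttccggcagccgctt
Klf9: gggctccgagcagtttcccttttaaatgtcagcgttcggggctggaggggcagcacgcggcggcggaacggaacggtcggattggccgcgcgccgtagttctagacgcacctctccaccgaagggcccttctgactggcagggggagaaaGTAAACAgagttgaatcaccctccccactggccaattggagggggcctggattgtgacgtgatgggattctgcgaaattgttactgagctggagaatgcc

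Total counts were 18012387, 15798759 and 14902248 in CUMS replicates 1, 2 and 3, and 17985688, 18023206 and 17642478 in control replicates 1, 2 and 3. CUMS replicates 2 and 3 stood apart: 20.1% and 22.6% of genes averaging 1 to 2 CPM had no read in them, against 0.0804% to 1.53% in the other 4 libraries. CPM are read counts scaled to a common library total and corrected for library composition. The cells carried their labelled markers, and transcripts of other cells were present too. The list of 10 T cell markers held the CD8 genes Cd8a and Cd8b1, and otherwise genes that T cells share, such as Cd3e, Trac and Thy1. All 10 had positive log2 fold changes of CUMS over control, with a median of 0.17. Of the 10, 1 rose: Cd8a was at 1180.3 ± 32.8 CPM in CUMS and 799.6 ± 51.7 CPM in control (SD, n = 3 each). On the log2 scale Cd8a changed by 0.56 (edgeR adjusted p = 0.0225), and Cd8b1, which did not pass, by 0.27 (0.265). Cd8a missed the threshold without CUMS replicate 2, control replicate 1 or control replicate 2. Summed over 15 markers, monocyte and neutrophil transcripts held 2549 to 2931 CPM in CUMS libraries and 3761 to 5756 CPM in control libraries, and 4 of 14 tested fell, a count that ran from 0 (without CUMS replicate 2) to 3 (without CUMS replicate 3) when 1 library was left out. It was 1 without CUMS replicate 1, control replicate 2 or control replicate 3, and 2 without control replicate 1. Of all genes, edgeR called 0.946% lower. At an unadjusted p under 0.05 stood 12 of the 14, beside 15.3% of all genes. DESeq2 called 8 of these markers lower and limma voom 9, where they called 4.89% and 3.54% of all genes they tested. Summed over 7 markers, CD4 T cell and regulatory T cell transcripts held 229 to 246 CPM in CUMS and 483 to 525 CPM in control, and 5 of 7 fell. That count was 1 without CUMS replicate 2, control replicate 1 or control replicate 2, 2 without CUMS replicate 1 or control replicate 3, and 6 without CUMS replicate 3. All 7 stood at an unadjusted p under 0.05, and DESeq2 and limma voom each called all 7 lower. None of these markers was at 0 in all libraries. Of NK cell markers, which held 241 to 281 CPM in CUMS and 343 to 433 CPM in control, edgeR called 0 of 11, with 4 at an unadjusted p under 0.05, DESeq2 called 3 and limma voom 2. Of 10 Kupffer cell and macrophage markers 4 were tested and 1 fell, and 0 fell in each fit that left out 1 library. Summed over the 10, they held 24.3 to 25.5 CPM in CUMS and 43.8 to 58.0 CPM in control, with Timd4 at 0 throughout. Hepatocyte markers held 13.4 to 26.04 CPM in CUMS and 10.1 to 14.8 CPM in control. B cell and plasma cell markers held 701 to 805 CPM in CUMS and 684 to 743 CPM in control, with 8 of 10 log2 fold changes positive. Liver endothelial markers held 178 to 212 CPM in CUMS and 145 to 156 CPM in control, with 1 of 7 tested. Dendritic cell markers were lower, at 39.2 to 54.9 CPM in CUMS and 61.0 to 80.5 CPM in control. In these 4 lists edgeR called 0 genes. In bulk RNA, fewer cells of a type and less RNA per cell cannot be told apart.

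The comparison of CUMS with control asked whether the receptor and its targets differed between the groups of this study of stress. In edgeR's quasi-likelihood test over all genes, 0 of the 9 genes passed a Benjamini-Hochberg adjusted p of 0.05, where 1.31% of all genes passed, 51 higher and 133 lower in CUMS. The nearest was Nr3c1 itself, at an adjusted p of 0.0557. At an unadjusted p under 0.05 stood 6 of the 9, beside 15.3% of all genes. The 3 CUMS libraries did not overlap the 3 controls for 7 of the 9 genes, beside 22.7% of all genes. Of these 7, 5 were lower in every CUMS library (11.9% of all genes) and 2, Ddit4 and Pik3ip1, were higher in every CUMS library (10.8%). The median log2 fold change of CUMS over control was -0.24 over the 9 genes and -0.0051 over all genes tested. Because the 9 genes were chosen with earlier results of these data known, these counts and medians are no independent test of the set. DESeq2 and limma voom with sample weights each called 1 of the 9, Nr3c1, where they called 4.89% and 3.54% of all genes they tested.

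**Figure D1:**
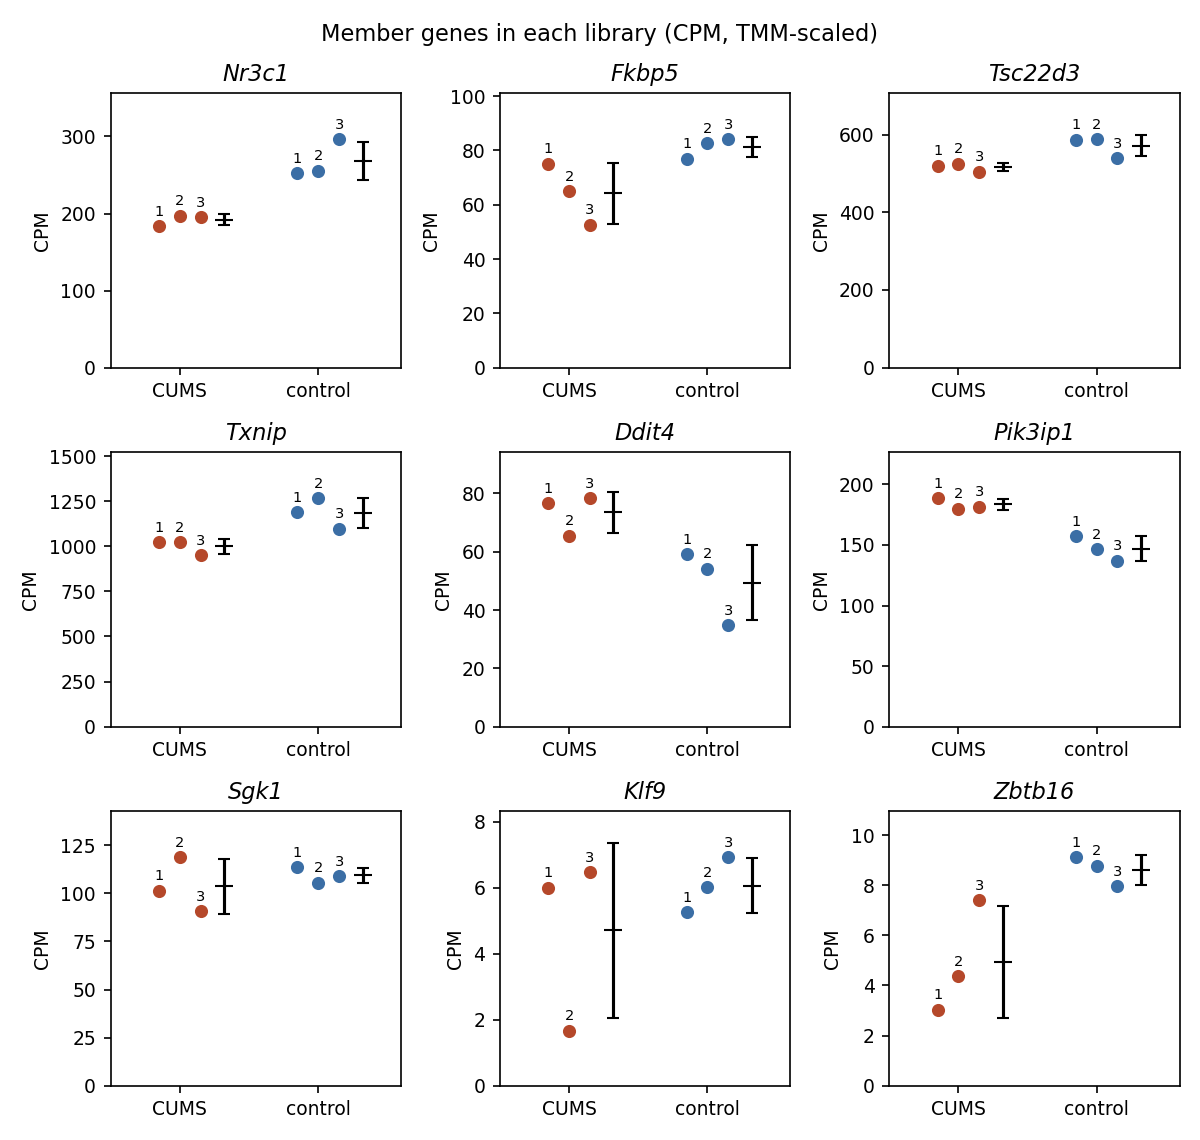
Levels (CPM, scaled by TMM factors) of the 9 genes in each library, CUMS left and control right, each axis starting at 0. Points are single libraries numbered by replicate, and black bars are the mean and SD of 3 libraries. Nr3c1 lies between 184 and 197 CPM in CUMS and between 252 and 296 CPM in control.

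Nr3c1 (ENSMUSG00000024431, mm10 chromosome 18, 39410545 to 39491301, minus strand) had 184, 197 and 195 CPM in CUMS replicates 1, 2 and 3, against 252, 256 and 296 CPM in control replicates 1, 2 and 3. All 3 CUMS libraries lay below all 3 controls, and they lay closer together than the controls did. The means were 192 ± 7.15 CPM in CUMS and 268 ± 24.6 CPM in control (SD, n = 3 each). Its log2 fold change was -0.48 ± 0.11 (SE), with a 95% interval of -0.72 to -0.25, and it missed the threshold narrowly (edgeR adjusted p = 0.0557). The call turned on the method: Nr3c1 passed with DESeq2 (adjusted p = 0.00131), with limma voom (0.0291), with no filter on low counts (0.00619), with a stricter filter (0.0416) and among protein-coding genes only (0.0422). These 3 edgeR fits called 2.93%, 2.88% and 2.41% of all genes they tested. Nr3c1 passed in 0 of the 6 fits that left out 1 library, over which the log2 fold change ran from -0.54 to -0.42. Without CUMS replicates 2 and 3 together the log2 fold change was -0.55 (edgeR adjusted p = 0.203). With a myeloid covariate, the mean log2 CPM of monocyte and neutrophil markers, it was -0.71 ± 0.25 (SE), a wider error than in the main fit. That covariate separated the groups, at 5.84 to 6.02 in CUMS and 6.50 to 7.18 in control, and the edgeR fit called 0 genes of the whole table, with 226 at an unadjusted p under 0.05. Its log2 fold changes are therefore given below without calls.

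Among 8481 protein-coding genes of at least 10 CPM, those whose profile over the 6 libraries lay nearest to that of Nr3c1 were Top2a, Tnfaip3 and Antxr2. Their log2 CPM, each set to its own mean, differed from that of Nr3c1 by a root mean square of 0.026, 0.052 and 0.055. Top2a, a topoisomerase of dividing cells, had 54.7 CPM in CUMS and 77.4 CPM in control, and none of the 3 passed the threshold (edgeR adjusted p = 0.0822, 0.0889 and 0.0866).

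Fkbp5 encodes the cochaperone FKBP51, which lowers the hormone affinity of the receptor and is itself induced by it, forming a short feedback loop. Fkbp5 (ENSMUSG00000024222, chromosome 17, 28399094 to 28517527, minus strand) had 75.1, 65.0 and 52.7 CPM in CUMS replicates 1, 2 and 3, against 77.0, 82.6 and 84.2 CPM in control replicates 1, 2 and 3. The groups did not overlap, yet CUMS replicate 1 lay almost level with control replicate 1. The log2 fold change was -0.34 ± 0.14 (SE), with a 95% interval of -0.65 to -0.024 (edgeR adjusted p = 0.289). Without CUMS replicates 2 and 3 it was -0.12.

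Tsc22d3 encodes GILZ, the glucocorticoid-induced leucine zipper, which binds and restrains AP-1 and NF-kB and is widely read as a marker of receptor activity. Tsc22d3 (ENSMUSG00000031431, chromosome X, 140539528 to 140600659, minus strand) had 519.6, 525 and 505 CPM in CUMS replicates 1, 2 and 3, against 587, 588 and 539 CPM in control replicates 1, 2 and 3. The groups did not overlap, and the gap between the highest CUMS library and the lowest control was smaller than the spread among the controls. The log2 fold change was -0.15 ± 0.09 (SE), with a 95% interval of -0.35 to 0.062 (edgeR adjusted p = 0.527).

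Txnip encodes the thioredoxin-interacting protein, an arrestin that limits glucose uptake and binds thioredoxin. Txnip (ENSMUSG00000038393, chromosome 3, 96557957 to 96561883, plus strand) had 1024, 1023 and 952 CPM in CUMS replicates 1, 2 and 3, against 1188, 1267 and 1099 CPM in control replicates 1, 2 and 3. All CUMS libraries lay below all controls. The log2 fold change was -0.24 ± 0.096 (SE), with a 95% interval of -0.46 to -0.035 (edgeR adjusted p = 0.252). With the same myeloid covariate it was 0.0062 ± 0.22 (SE), an estimate too wide to give a sign.

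Ddit4 and Pik3ip1 had the opposite sign. Both encode brakes on growth signalling: Ddit4 (REDD1) holds back the kinase mTOR under stress and Pik3ip1 binds and inhibits PI3 kinase. Ddit4 (ENSMUSG00000020108, chromosome 10, 59949669 to 59951834, minus strand) had 76.6, 65.4 and 78.4 CPM in CUMS replicates 1, 2 and 3, against 59.1, 54.2 and 34.7 CPM in control replicates 1, 2 and 3. Every CUMS library lay above every control, and control replicate 3 lay far below the other controls. Its log2 fold change was 0.57 ± 0.19 (SE), with a 95% interval of 0.17 to 0.98 (edgeR adjusted p = 0.165). It was called only with no filter on low counts (adjusted p = 0.0111) among the 16 alternatives, and without control replicate 3 it was 0.36. Pik3ip1 (ENSMUSG00000034614, chromosome 11, 3330401 to 3342971, plus strand) had 189, 180.02 and 182 CPM in CUMS replicates 1, 2 and 3, against 157, 146 and 137 CPM in control replicates 1, 2 and 3. Every CUMS library lay above every control. Its log2 fold change was 0.32 ± 0.10 (SE), with a 95% interval of 0.092 to 0.55 (edgeR adjusted p = 0.168), and it ran from 0.26 to 0.39 over the 16 alternatives without passing in any.

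Sgk1 encodes a kinase related to AKT that is known as an early target of the mineralocorticoid and glucocorticoid receptors, and 1 of its promoter windows holds the full palindrome shown above. Sgk1 (ENSMUSG00000019970, chromosome 10, 21882184 to 21999903, plus strand) had 101, 119 and 90.8 CPM in CUMS replicates 1, 2 and 3, against 114, 106 and 109 CPM in control replicates 1, 2 and 3. The CUMS libraries lay on both sides of the controls. The log2 fold change was -0.078 ± 0.12 (SE), and its 95% interval of -0.35 to 0.19 leaves room for a difference in either direction (edgeR adjusted p = 0.844). Without CUMS replicate 3 it was 0.0048.

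Klf9 and Zbtb16 encode transcription factors and had the fewest reads of the 9. Klf9, a zinc finger factor induced by glucocorticoids in many tissues (ENSMUSG00000033863, chromosome 19, 23141226 to 23166911, plus strand), had 6.01, 1.66 and 6.47 CPM in CUMS replicates 1, 2 and 3, against 5.27, 6.02 and 6.93 CPM in control replicates 1, 2 and 3. Its low mean in CUMS came from replicate 2, with 27 counts (95% exact Poisson interval 17.8 to 39.3), beside 107 and 98 counts in CUMS replicates 1 and 3. The log2 fold change was -0.36 ± 0.47 (SE; edgeR adjusted p = 0.798), and without CUMS replicate 2 it was 0.036. Zbtb16 encodes PLZF, the factor that directs innate-like T cells such as NKT cells (ENSMUSG00000066687, chromosome 9, 48654297 to 48836222, minus strand). It had 3.03, 4.37 and 7.39 CPM in CUMS replicates 1, 2 and 3, against 9.12, 8.77 and 7.96 CPM in control replicates 1, 2 and 3. The groups did not overlap, but the CUMS libraries were widely spread and replicate 3 came close to the controls. The log2 fold change was -0.81 ± 0.36 (SE), with a 95% interval of -1.61 to -0.0091 (edgeR adjusted p = 0.320), and it was -1.51 without CUMS replicates 2 and 3. Of 12 markers of NKT and gamma delta T cells, 3 fell in the same libraries (all genes: 0.946% lower): Maf, Tcrg-C2 and Cd163l1, which passed in 3, 2 and 1 of the 6 fits that left out 1 library. All 12 markers had negative log2 fold changes, and 7 stood at an unadjusted p under 0.05 (15.3% of all genes). Summed over the 12, they held 87.0 to 114 CPM in CUMS and 186 to 202 CPM in control, with none at 0 in all libraries. Their part in the Zbtb16 values was not tested.

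**Figure D2:**
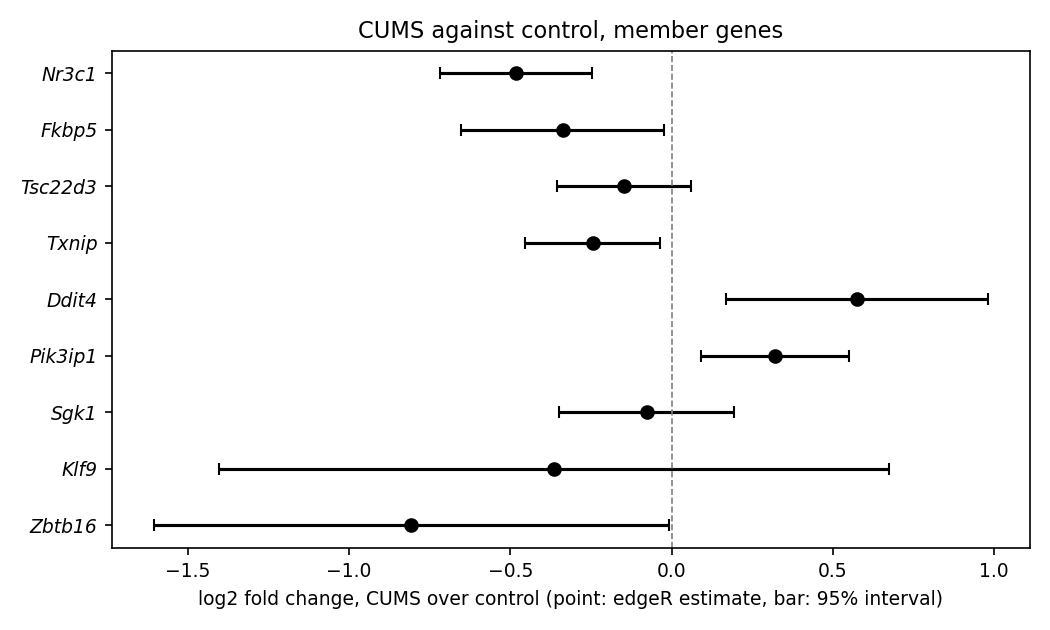
Log2 fold change of CUMS over control for each of the 9 genes, on a linear axis. Points are edgeR estimates from 3 libraries a group and bars are 95% intervals, from -0.72 to -0.25 for Nr3c1 and from -1.40 to 0.67 for Klf9.

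The 9 genes did not share 1 pattern over the libraries. Control replicate 3 was the highest control for Nr3c1, Fkbp5 and Klf9 and the lowest for Txnip, Tsc22d3, Ddit4, Pik3ip1 and Zbtb16. CUMS replicate 3 was the lowest CUMS library for Txnip, Tsc22d3, Sgk1 and Fkbp5 and the highest for Ddit4, Klf9 and Zbtb16. Fkbp5, Sgk1, Klf9 and Zbtb16 varied more among the CUMS libraries than among the controls, and the other 5 genes varied less. Ranked among the log2 fold changes of all 14054 genes, Zbtb16 stood at percentile 7.85, Nr3c1 at 14.7, Klf9 at 18.9, Fkbp5 at 20.2, Txnip at 25.7, Tsc22d3 at 33.9 and Sgk1 at 41.5. On the other side stood Pik3ip1 at percentile 79.7 and Ddit4 at 89.3. The sign of Nr3c1, Fkbp5, Tsc22d3, Zbtb16, Ddit4 and Pik3ip1 held in all 16 alternatives. Over them Nr3c1 ran from -0.71 to -0.42, Fkbp5 from -0.47 to -0.12, Tsc22d3 from -0.20 to -0.022, Zbtb16 from -1.51 to -0.56 and Ddit4 from 0.36 to 1.11.

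Levels between genes were compared per length, as RPKM, the CPM per kilobase of the deposited gene length. In CUMS, Txnip stood highest with 320.1 ± 13.3 RPKM, followed by Tsc22d3 with 119 ± 2.38. Pik3ip1 and Ddit4 came next with 42.9 ± 1.07 and 41.9 ± 3.98 RPKM, a pair that did not differ beyond its spread. They were followed by Nr3c1 with 25.8 ± 0.962 RPKM and Sgk1 with 21.1 ± 2.89 RPKM, and then by Fkbp5 with 6.79 ± 1.19 RPKM. Klf9 with 1.44 ± 0.813 RPKM and Zbtb16 with 0.934 ± 0.423 RPKM closed the order and overlapped (SD, n = 3 throughout). In control, Txnip had 379 ± 26.9 RPKM and Tsc22d3 had 132 ± 6.37 RPKM. Next came Nr3c1 with 36.1 ± 3.31 RPKM, overlapping Pik3ip1 with 34.4 ± 2.37 RPKM, which in turn overlapped Ddit4 with 28.1 ± 7.34 RPKM. Sgk1 with 22.3 ± 0.814 RPKM lay within the range of the Ddit4 libraries. Fkbp5 with 8.58 ± 0.396 RPKM stood apart, and Klf9 with 1.86 ± 0.256 RPKM and Zbtb16 with 1.63 ± 0.112 RPKM overlapped. Nr3c1 stood below Pik3ip1 and Ddit4 in each CUMS library, and above Ddit4 in each control library. Reads were few on the genes that overlap a member in the table. Gm15441 opposite Txnip had 0 to 36 counts, Gm12592 opposite Pik3ip1 had 9 to 56 counts, and the genes overlapping Fkbp5 and Klf9 had at most 24 and 12 counts.

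**Figure D3:**
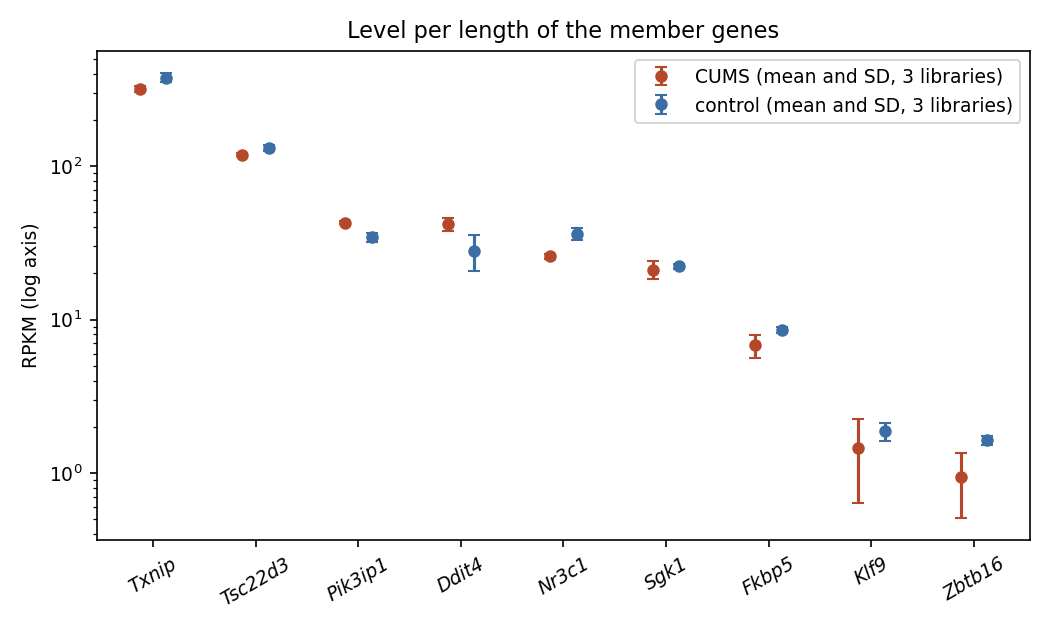
Level per length (RPKM, log axis) of the 9 genes, CUMS left and control right of each tick. Points and bars are the mean and SD of 3 libraries, and the genes run from Txnip with 320.1 RPKM in CUMS to Zbtb16 with 0.934 RPKM in CUMS.

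Most of the chaperones that hold the receptor ready for hormone fell in CUMS. Of 11 listed genes, all tested, 8 fell and 0 rose (all genes: 0.946% lower), with a median log2 fold change of -0.76 beside -0.0051 over all genes. The list was chosen with earlier results of these data known, so its count is no independent test. The inducible HSP90 gene Hsp90aa1 fell to 249.9 ± 34.2 CPM in CUMS, against 635 ± 53.4 CPM in control (SD, n = 3 each; edgeR adjusted p = 0.001). Stip1, which hands clients from HSP70 to HSP90, fell to 139 ± 18.3 CPM in CUMS, against 319.9 ± 17.7 CPM in control (edgeR adjusted p = 0.00169). The list also included Hspa8, which fell by 0.82 ± 0.092 on the log2 scale, Ptges3, the p23 cochaperone that stabilises the hormone-binding form, which fell by 1.06 ± 0.18, and Fkbp4, the FKBP52 counterpart of Fkbp5, which fell by 0.69 ± 0.12. Dnaja1, St13 and Hsp90ab1, a second HSP90 gene, also fell, with log2 fold changes of -1.04 ± 0.12, -0.76 ± 0.11 and -0.52 ± 0.086. Ppid, Ppp5c and Bag1 did not pass, with log2 fold changes of 0.032, 0.19 and -0.34. The count of genes that fell was 3 without CUMS replicate 2 and 3 without CUMS replicates 2 and 3 together, and 5 without control replicate 1 or 2. The list median was -0.74 and -0.69 in the fits with 3 calls. With the myeloid covariate it was -0.93, with Hsp90aa1 at -1.50 and Stip1 at -1.32. That covariate separated the groups, and the part of myeloid cells in these values was not tested. With single libraries left out, Hsp90aa1, Stip1 and Dnaja1 passed in 6 of 6 fits, Hspa8 and St13 in 5, Hsp90ab1 in 3, and Ptges3 and Fkbp4 in 2.

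Other parts of the glucocorticoid pathway showed few calls with edgeR. None of 13 coregulators passed with edgeR, 4 stood at an unadjusted p under 0.05, DESeq2 called 2 and limma voom 1, and the median log2 fold change was -0.062. The smallest p belonged to Hexim1, with 62.9 ± 7.55 CPM in CUMS and 93.1 ± 10.3 CPM in control (edgeR adjusted p = 0.07), followed by the coactivators Ncoa1 (0.122) and Ep300 (0.16). Of 9 genes of steroid supply and the related receptor Nr3c2, 6 were tested and none passed with edgeR, with 1 at an unadjusted p under 0.05 and none called by DESeq2 or limma voom. Hsd11b1, which regenerates active glucocorticoid, had 86.0 ± 11.6 CPM in CUMS and 72.0 ± 1.68 CPM in control (edgeR adjusted p = 0.379). For the efflux pump gene Abcb1b the log2 fold change was 0.69 ± 0.20 (0.127) and H6pd had 0.20 ± 0.15 (0.599).

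Of 26 other genes known to be induced by glucocorticoids, 21 were tested, 1 fell and 0 rose with edgeR (all genes: 0.946% lower). The median log2 fold change was -0.44. At an unadjusted p under 0.05 stood 10 of the 21, beside 15.3% of all genes. DESeq2 called 7 of the list lower and limma voom 4, where they called 4.89% and 3.54% of all genes they tested. Past the threshold with edgeR stood the chemokine receptor Cxcr4, at 140.2 ± 26.3 CPM in CUMS and 228 ± 20.7 CPM in control (edgeR adjusted p = 0.0387). Cxcr4 passed in 0 of the 6 fits that left out 1 library. Anxa1 and Bcl6 had log2 fold changes of -0.70 ± 0.16 and -0.62 ± 0.14 (edgeR adjusted p = 0.0609 for both). Of 15 genes known to be repressed by glucocorticoids, 9 were tested and 1 fell with edgeR (all genes: 0.946% lower). This was the cytokine Il1b, at 226 ± 11.5 CPM in CUMS and 453 ± 135 CPM in control (edgeR adjusted p = 0.0226). It missed the threshold without CUMS replicate 1, CUMS replicate 2 or control replicate 2. Of the 9, 3 stood at an unadjusted p under 0.05, and DESeq2 called 1 of the list lower and limma voom 2. The median of the 9 was -0.44, and Ptgs2 (edgeR adjusted p = 0.174) and Icam1 (0.215) did not pass. Both lists had the same median sign, with 16 of 21 and 9 of 9 tested genes negative, in libraries where the median over 14 tested markers of monocytes and neutrophils was -0.83. With the myeloid covariate the medians were -0.024 for the induced genes and -0.030 for the repressed genes. Because that covariate separated the groups, this fit cannot tell myeloid content from group. The cause of the lower values was not tested.

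The adrenergic receptor genes described here held few or no reads. Adrb1 had 14, 39 and 23 counts in CUMS replicates 1, 2 and 3, against 15, 18 and 2 counts in control replicates 1, 2 and 3, and its groups overlapped (edgeR adjusted p = 0.65). Adra1b had 2 counts in control replicate 1, Adra2b 3 in control replicate 2, and Adra2c 1 and 5 in control replicates 1 and 2, with none in the other libraries. Adra1a, Adra1d, Adra2a and Adrb3 had 0 counts in all 6 libraries, which allows up to 3 counts in each, or 0.166 to 0.201 CPM.

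Downstream of these receptors, none of 24 genes of cyclic AMP signalling passed with edgeR, 3 stood at an unadjusted p under 0.05, and the median log2 fold change was -0.063. Adcy7, an adenylyl cyclase of lymphocytes, had 661 ± 80.1 CPM in CUMS and 483 ± 9.02 CPM in control (edgeR adjusted p = 0.0717). Pde3b (0.126) and Grk6 (0.129) followed. DESeq2 called 3 of the 24, 2 higher and 1 lower, and limma voom called 1 higher. Of 13 genes known to be induced by cyclic AMP, 12 were tested, 4 fell and 0 rose with edgeR (all genes: 0.946% lower), and the median was -0.64. Of the 12, 7 stood at an unadjusted p under 0.05, beside 15.3% of all genes. Lower calls in the list numbered 5 with DESeq2 and 4 with limma voom, which called 4.89% and 3.54% of all genes they tested. With the replicate block 1 fell. The AP-1 gene Fosl2 fell to 77.7 ± 11.1 CPM in CUMS, against 157 ± 40.1 CPM in control (edgeR adjusted p = 0.0229). Fos fell to 184 ± 2.54 CPM in CUMS, against 316 ± 74.8 CPM in control (0.0316), and Sik1 to 21.8 ± 1.28 CPM in CUMS, against 41.3 ± 8.93 CPM in control (0.0378). The fourth was Rgs2 (log2 fold change -0.70 ± 0.15). These genes also respond to other stimuli, and their count rested on single libraries: it was 0 without CUMS replicate 1, CUMS replicate 2 or control replicate 2, 1 without CUMS replicate 3 or control replicate 3, and 2 without control replicate 1. It was 0 without CUMS replicates 2 and 3 together. The monocyte and neutrophil markers were lower in the same CUMS libraries. With the myeloid covariate the list median was -0.20, with Fosl2 at -0.29, Sik1 at -0.17, Fos at -0.025 and Rgs2 at -0.018 on the log2 scale. That covariate separated the groups, so its fit cannot tell myeloid content from group, and the cause of these falls was not tested.

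**Figure D4:**
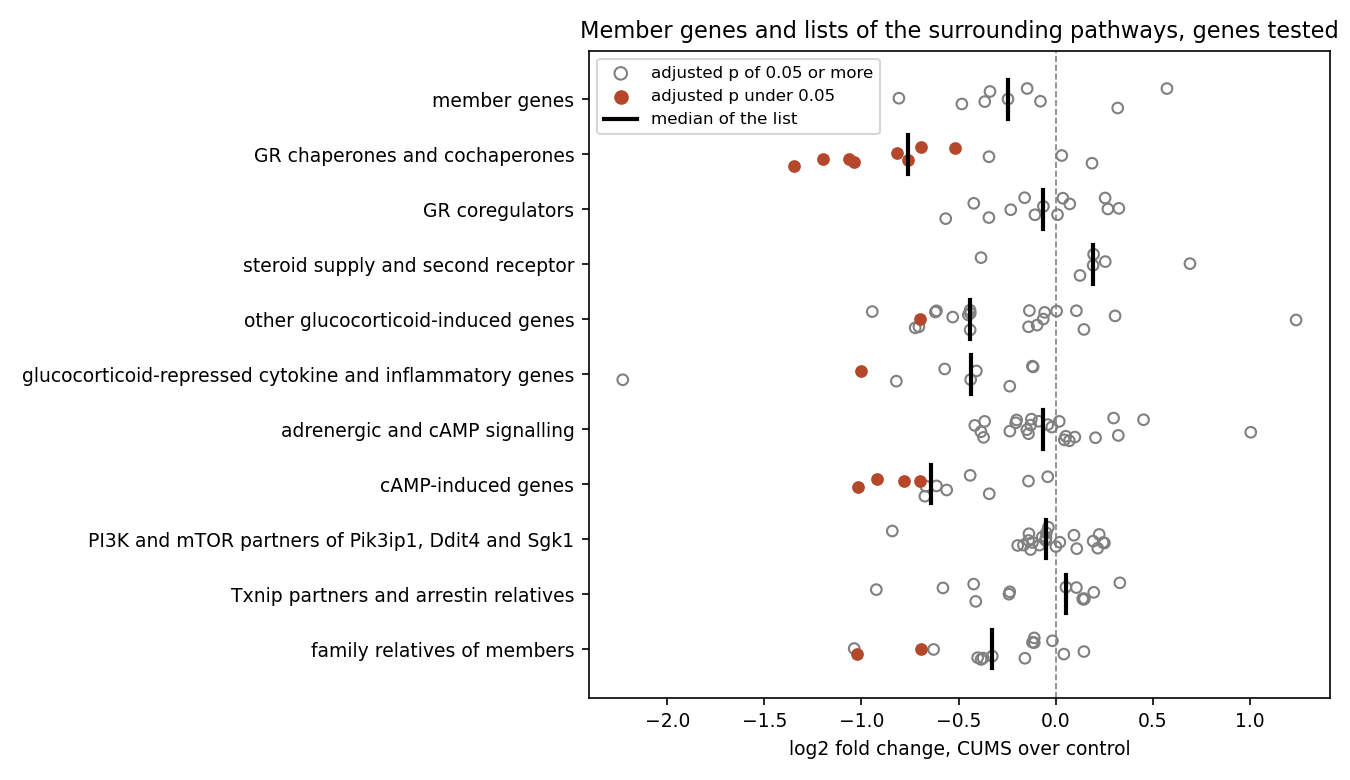
Log2 fold change of CUMS over control for the 9 genes (top row) and for the tested genes of 10 surrounding lists. Filled points passed an edgeR adjusted p of 0.05, open points did not, and black bars are list medians, from -0.76 for the chaperones to 0.20 for the genes of steroid supply.

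The partners of the targets were compared in the same way. Of 23 PI3 kinase and mTOR genes around Ddit4, Pik3ip1 and Sgk1, 22 were tested and none passed with edgeR, 3 stood at an unadjusted p under 0.05, and DESeq2 and limma voom called 1 each. The median was -0.048. Sesn2, a stress-induced mTOR inhibitor, had 14.5 ± 1.49 CPM in CUMS and 25.9 ± 6.04 CPM in control (edgeR adjusted p = 0.0852), Pik3cd had a log2 fold change of 0.25 ± 0.11 (0.308) and Foxo1 had 0.24 ± 0.11 (0.31). Of 14 thioredoxin, glucose-sensing and arrestin genes around Txnip, 13 were tested and none passed with edgeR, 5 stood at an unadjusted p under 0.05, DESeq2 called 1 and limma voom 0, and the median was 0.053. Arrdc4, an arrestin that like Txnip follows the glucose sensor MLXIP, had -0.58 ± 0.18 on the log2 scale (edgeR adjusted p = 0.148), Nlrp3 -0.92 ± 0.29 (0.148) and the glucose transporter Slc2a3 -0.42 ± 0.14 (0.178). Among 17 family relatives of the 9 genes, 15 were tested and 2 fell with edgeR (all genes: 0.946% lower), Fkbp4 and Zbtb7b. Zbtb7b, the CD4 lineage factor related to Zbtb16, stood at 47.9 ± 5.48 CPM in CUMS and 97.3 ± 20.3 CPM in control (edgeR adjusted p = 0.0188). The edgeR count was 0 without CUMS replicate 1 or 2 and without control replicate 1 or 2. Of the 15, 7 stood at an unadjusted p under 0.05 (15.3% of all genes). Lower calls in the list numbered 3 with DESeq2 and 4 with limma voom, where they called 4.89% and 3.54% of all genes. Klf6, next by p, had a log2 fold change of -0.40 ± 0.10 (0.0873).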

How the data were processed

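The deposited table holds raw counts that the authors deposited without normalization, beside gene lengths in bases. Per the submitters' processing notes, the build was mm10 and the tools included fastp, featureCounts 1.5.0-p3, HISAT2 2.0.5 and DESeq2 1.20.0. Neither the annotation release nor the strand setting is given in the sources used here, and without strand a gene and its antisense neighbour cannot be separated. Genes were kept by edgeR 4.0.16 filterByExpr in R 4.3.3, scaled by TMM and fitted over all 6 libraries with glmQLFit (legacy form) and a two-sided quasi-likelihood F test, adjusted by Benjamini-Hochberg over 14054 genes at 0.05. Standard errors were derived from the F statistic. An exact permutation test of 3 against 3 cannot reach that threshold, so none was run. Profiles used log2 CPM with a prior count of 2. Poisson intervals are at the 95% level, and intervals and floors cover counting error only, as reads carry no molecular identifiers. Within a group no library pair agreed within counting noise (chi-square per gene 9.98 to 35.3).

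Alternatives were other size factors (median of ratios, library size alone), no filter, a stricter filter (a mean of 50 counts and 1 CPM in 3 libraries), the Wald test of DESeq2 1.42.0, voom of limma 3.58.1 with sample weights, a replicate block, a marker covariate, left-out libraries and protein-coding genes only. The members and lists were chosen with earlier results of these data known. Named list genes are the 3 with the smallest p in each pathway list and adrenergic receptors; others named were chosen after their values were seen. A gene that the rule names is not reported here. The tests were checked on simulated counts. Figures were drawn with matplotlib 3.10.9.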

Additional observations from a re-analysis of the deposited data

How the results depend on the processing

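Over the 16 alternatives for each of the 9 genes, 144 values in all, 141 kept their sign, 6 moved past the threshold and none of the 9 genes had passed it to begin with. The number of the 9 genes called was 2 with no filter (Nr3c1 and Ddit4) and 1, Nr3c1, with the stricter filter, DESeq2, limma voom and protein-coding genes only, and 0 in each fit without a library. The log2 fold changes that changed sign were Txnip at 0.0062 with the marker covariate, Klf9 at 0.036 without CUMS replicate 2 (range over fits with 1 library left out -0.66 to 0.036) and Sgk1 at 0.0048 without CUMS replicate 3 (range -0.19 to 0.0048); the cause was not tested. Over the whole table the number of genes called was 704 with no filter, 316 with the stricter filter, 623 with DESeq2, 497 with limma voom, 280 among protein-coding genes, 9 to 178 with 1 library left out and 7 without CUMS replicates 2 and 3 together. With the marker covariate edgeR called 0, with 226 at an unadjusted p under 0.05. The replicate block called 71 genes, and the replicate numbers did not pair the libraries: deviations of same-numbered libraries correlated at 0.014, -0.036 and -0.037, and 2 of 6 libraries correlated best with their own number. The block called 0 of the 9 genes. Counting error, relative to the count, was largest for Klf9 and Zbtb16, the genes with the fewest counts.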
